A study of Mus musculus with 3 samples.

Results

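The genes Col4a1, Col4a2, Lama1, Lama3, Lama5, Lamb1, Lamb3, Lamc1 and Nid1 encode structural proteins of the basement membrane, and they were chosen by name as a set of 9 of the 30406 genes that all of the deposited count tables hold. They were followed through tip, airway and Hopx/Clic5-positive epithelial cells and through Epcam-low cells of mouse lung at stage E14.5. Lungs of embryos from 2 C57/B6 females were pooled, dissociated, stained for Epcam and Icam1 and sorted, and the sorted cells were made into Chromium Single Cell 3' v3 libraries. The groups are Epcam+ Icam+ cells, with 2 libraries (replicates 1 and 2), and Epcam+ cells, with 1 library. No genotype or treatment other than the strain is given for either group. Because nothing in the labels says that replicates 1 and 2 came from separate pools of embryos, the spread between them may be technical.

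A basement membrane is a thin sheet of matrix under every epithelium and around endothelium. Laminins, each built of an alpha, a beta and a gamma chain, polymerise on the cell surface, type IV collagen forms a second network, and nidogen bridges them. In the growing lung the sheet covers the epithelial buds and tubes and lies between epithelium and mesenchyme, and it is remodelled where buds extend and branch.

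In the mm10 build with GENCODE vM21 annotation, all members are protein coding, and none shares exon bases on its own strand with another gene. Col4a1 lies on the minus strand at chr8:11198423-11312826 and Col4a2 on the plus strand at chr8:11312805-11449287, so their annotated starts face away from each other and overlap. Lama1 lies at chr17:67697259-67822647 (plus), Lama3 on chromosome 18, Lama5 at chr2:180176373-180225859 (minus), Lamb1 at chr12:31265234-31329644 (plus), Lamb3 at chr1:193207699-193343878 (plus), Lamc1 at chr1:153218922-153332786 (minus) and Nid1 at chr13:13437551-13512269 (plus). Counting was of transcript 3' ends, so a transcript gives about 1 tag whatever its length, and the counts do not tell isoforms apart.

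The members divide by role. Col4a1 and Col4a2 encode the chains of the most widespread type IV collagen trimer. Lama1, Lama3 and Lama5 encode laminin alpha chains, Lamb1 and Lamb3 beta chains, and Lamc1 the gamma chain of most laminins. Lama3 and Lamb3 chains occur in the same laminin trimer. Nid1 encodes nidogen 1, which in many organs is made by mesenchyme rather than by epithelium.

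The stretch that the Col4a1 and Col4a2 annotations share is shown because both genes were lower in airway than in tip cells. It holds 22 bases at chr8:11312805-11312826, on the plus strand of GRCm38.p6, from RefSeq. No motif was searched for or marked in this stretch, so the letters GGGCGG in it are in lower case.
Col4a1 and Col4a2 overlap: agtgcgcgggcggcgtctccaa

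RefSeq promoter windows were available for 6 of the 9 members. Those of Lamb3, Lama5 and Lamb1 are printed because these 3 laminin genes, on different chromosomes, all stood lower in airway cells than in tip cells. Each is read 5' to 3' on the gene's own strand and ends before the RefSeq start of the gene. In these 3 windows capitals mark a GC box (GGGCGG) or a CCAAT box (CCAAT) on either strand. Lamb3 is at chr1:193301744-193301992 (plus, inside the longer gene model of GENCODE), Lama5 at chr2:180225860-180226109 (minus) and Lamb1 at chr12:31265043-31265233 (plus).
Lamb3: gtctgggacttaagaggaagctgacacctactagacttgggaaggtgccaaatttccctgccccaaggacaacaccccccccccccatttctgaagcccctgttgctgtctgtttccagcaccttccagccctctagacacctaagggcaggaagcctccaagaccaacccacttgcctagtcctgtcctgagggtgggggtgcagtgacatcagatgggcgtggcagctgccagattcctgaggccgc
Lama5: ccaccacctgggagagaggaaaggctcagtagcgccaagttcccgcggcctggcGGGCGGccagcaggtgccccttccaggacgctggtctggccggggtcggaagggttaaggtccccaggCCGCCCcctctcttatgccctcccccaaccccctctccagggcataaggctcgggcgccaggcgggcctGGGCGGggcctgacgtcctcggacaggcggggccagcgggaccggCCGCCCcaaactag
Lamb1: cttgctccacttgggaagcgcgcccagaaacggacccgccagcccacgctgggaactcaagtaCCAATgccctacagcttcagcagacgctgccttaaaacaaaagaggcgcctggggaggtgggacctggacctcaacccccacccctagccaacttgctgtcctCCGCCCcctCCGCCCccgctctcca
The Lama5 window held 4 GC boxes, the Lamb1 window 2 GC boxes and 1 CCAAT box, and the Lamb3 window neither motif. None of the 3 held an AP-1 site (TGANTCA). No marked match overlaps another. Over 32851 RefSeq promoters, the 250 bases before the start held a GC box in 32.7%, a CCAAT box in 33.9% and an AP-1 site in 6.75%, so 1 match is common and describes only the letters of a window.

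Unique molecular identifiers (UMIs, counted molecules) totalled 74170599 over 4739 barcodes in Epcam+ Icam+ replicate 1, 67843828 over 4531 in Epcam+ Icam+ replicate 2 and 84460347 over 3697 in Epcam+. In the cells left by the filters, median depth was 19589, 19528.5 and 26668 UMIs a cell, and the Epcam+ Icam+ libraries shared 2 barcodes with each other and none with the Epcam+ library. The 2 sorts also differed in the deposited gene table (32285 and 31053 genes) and in the software version in the file header (Cell Ranger 5.0.1 and 3.0.2), so sort, gene table and software cannot be told apart. For that reason the classes are compared within each library first and the sorts last.

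Cells were placed by marker genes that include no member. Of cells with at least 3000 UMIs, those with Epcam at 250 CPM or more (UMIs of a gene per total UMIs, scaled to the same total everywhere) and few immune transcripts were called epithelial. Among these, Hopx/Clic5-positive cells had at least 3 UMIs and 200 CPM of Hopx plus Clic5, genes known from the alveolar type 1 lineage. Tip cells had at least 3 UMIs of Sox9 plus Etv5, transcription factors of the distal tip, and airway cells at least 3 UMIs of Sox2 plus Scgb3a2, which mark the proximal airway, each with 3 times as many as of the other pair.

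Hopx/Clic5-positive cells numbered 775 and 640 in Epcam+ Icam+ replicates 1 and 2 and 0 in Epcam+. With none there, every value for these cells comes from the 2 Epcam+ Icam+ libraries. Airway cells numbered 89 and 103 in Epcam+ Icam+ and 168 in Epcam+, and tip cells 560, 556 and 1752. In all that follows, values are listed with Epcam+ Icam+ replicate 1 first, then Epcam+ Icam+ replicate 2, then Epcam+ where it has cells of the class.

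The gates have soft edges. Of the Hopx/Clic5-positive cells, 164 and 133 lay at 200 to 250 CPM of the gate genes, while 245, 184 and 4 epithelial cells lay just outside, at 150 to 200 CPM. Hopx/Clic5-positive cells also passed the tip gate in 232 and 202 cases and the airway gate in 27 and 18 cases. Of the tip cells, 230, 208 and 304 had only 3 or 4 UMIs of the gate genes, as did 20, 19 and 35 of the airway cells.

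Markers that no gate used were compared with the labels. A list of 5 airway genes summed to 5.59 and 4.97 CPM in Hopx/Clic5-positive cells, to 99.4, 98.5 and 26.8 CPM in airway cells and to at most 2.29 CPM in tip cells. The surfactant gene Sftpc stood at 4175 and 4589 CPM in Hopx/Clic5-positive cells, at 462, 58.0 and 547 CPM in airway cells and at 10350, 10464 and 2787 CPM in tip cells. The receptor gene Ager, an alveolar type 1 marker, stood at 315 and 331 CPM in Hopx/Clic5-positive cells, against 215, 197 and 104 CPM in tip cells, whereas Aqp5, another marker of that type, was under 1 CPM in every class. Hopx/Clic5-positive cells are therefore named here by their gate genes and are not called alveolar type 1 cells.

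Free RNA was not removed. Its level can be read from Epcam-low immune cells only for genes that those cells do not make themselves, which was not tested. In those cells the 5 ungated tip genes (Id2, Sftpc, Bmp4, Etv4 and Mycn) summed to 634, 536 and 491 CPM. Airway cells had 697, 287 and 979 CPM, and the immune value was above the airway value in 1 of the 3 libraries. Each laminin and collagen gene of the set stood at 13.8 CPM or less in immune cells in every library. The part of free RNA in the class differences was not tested.

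Airway cells carried less RNA for most of the set than tip cells did in every library. Of the 9 members, 8 were lower in airway cells by edgeR's quasi-likelihood test with Benjamini-Hochberg adjustment over all genes, against 20.8% of the 13325 genes tested that were lower, and none was higher, against 14.2% (35.0% in either direction). The median log2 fold change over the 9 members was −1.10, beside −0.05 over all genes tested. Lama3 and Lamc1 were among the lowest, Lama1 had few counts, and Nid1 did not pass the test.

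**Figure D1:**
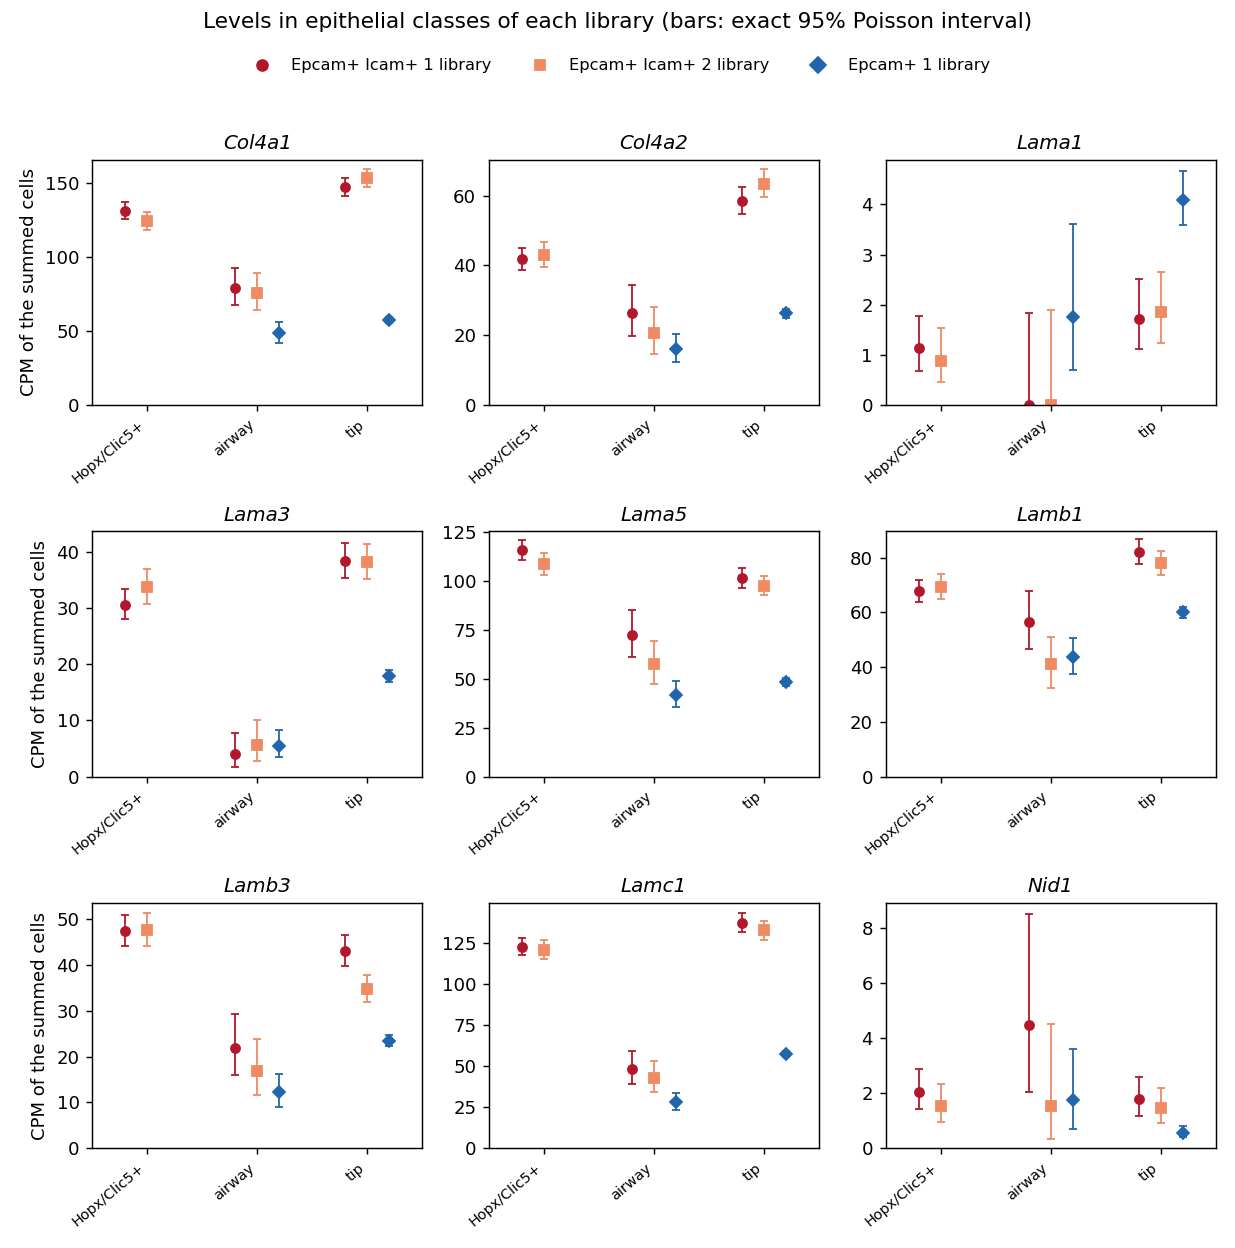
CPM (vertical axis, from 0) of each member in the summed cells of each epithelial class (horizontal axis), with 1 point for each library and bars for the exact 95% Poisson interval. Airway points of Lama3 lie between 3.98 and 5.64 CPM, below the Hopx/Clic5-positive points at 30.6 and 33.7 CPM and the tip points at 17.8 to 38.3 CPM.

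Among the alpha chains, Lama3 separated the classes most widely. It stood at 30.6 and 33.7 CPM in Hopx/Clic5-positive cells, at 3.98, 5.64 and 5.51 CPM in airway cells and at 38.3, 38.2 and 17.8 CPM in tip cells. All airway values lay below all values of the other classes, and they rest on 8, 11 and 22 UMIs, with a counting interval in the first library of 1.72 to 7.83 CPM. Between airway and tip cells the log2 fold change was −2.56 (SE 0.207, edgeR adjusted p = 7.59e-07, lower in 3 of 3 libraries). Between Hopx/Clic5-positive and airway cells it was 2.34 (SE 0.226, edgeR adjusted p = 1.41e-05, higher in 2 of 2 libraries).

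The share of cells with a Lama3 UMI had the same order of point values once each cell had been thinned to 3000 UMIs, the least depth of any cell used. It was 5.68% and 7.81% of Hopx/Clic5-positive cells, 2.25%, 0.97% and 0.60% of airway cells and 9.46%, 12.8% and 5.25% of tip cells. The airway shares rest on 2 of 89, 1 of 103 and 1 of 168 cells, with exact 95% binomial upper limits of 7.88%, 5.29% and 3.27%. In Epcam+ Icam+ replicate 1 the airway interval overlapped those of Hopx/Clic5-positive cells (4.16% to 7.55%) and tip cells (7.17% to 12.2%). Immune cells, whose median depth was 22584, 22918 and 24951 UMIs, gave 0.18%, 0.56% and 0% (0 of 68 cells, exact 95% binomial upper limit 5.28%) when thinned in the same way. Without thinning the shares were 39.1% and 45.9% in Hopx/Clic5-positive cells, 5.62%, 9.71% and 11.9% in airway cells and 56.1%, 59.5% and 40.1% in tip cells. They were taken at median depths of 19781 and 19951 UMIs in Hopx/Clic5-positive cells, 17993, 16297 and 19901.5 UMIs in airway cells and 26203.5, 26603 and 30054.5 UMIs in tip cells.

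Lama5, the alpha chain most widely found under mature epithelia and needed in mice for lung lobe formation, had a smaller range. It stood at 116 and 108 CPM in Hopx/Clic5-positive cells, at 72.5, 57.5 and 41.8 CPM in airway cells and at 101, 97.6 and 48.3 CPM in tip cells. Airway cells were lowest within each library, although the highest airway value exceeded the tip value of the Epcam+ library. Within Epcam+ the counting intervals overlapped, at 35.7 to 48.6 CPM in airway cells and 46.6 to 50.2 CPM in tip cells. The log2 fold change was 0.80 for Hopx/Clic5-positive against airway cells (SE 0.0988, edgeR adjusted p = 9.92e-05) and −0.59 for airway against tip cells (SE 0.0887, edgeR adjusted p = 0.00018).

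Lama1, the alpha chain of the earliest embryonic basement membranes, was close to the limit of detection. It stood at 1.14 and 0.876 CPM in Hopx/Clic5-positive cells, from 19 and 12 UMIs, and at 1.72, 1.84 and 4.09 CPM in tip cells, from 26, 29 and 232 UMIs. Airway cells of the Epcam+ Icam+ libraries held 0 UMIs, against a floor of 1.49 and 1.54 CPM (3 counts a library). The exact 95% Poisson upper limits for 0 UMIs there, 1.83 and 1.89 CPM, lay above the tip values of those libraries. Airway cells of the Epcam+ library held 7 UMIs, or 1.75 CPM. Lama1 was lower in airway than in tip cells (edgeR adjusted p = 0.0096, lower in 3 of 3 libraries), and in the Epcam+ library, the only one with UMIs in both classes, airway cells were at 1.75 CPM (exact 95% Poisson interval 0.704 to 3.61) and tip cells at 4.09 CPM (3.58 to 4.65).

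Of the beta chains, Lamb1 belongs to most laminins and Lamb3 to the trimer with Lama3. Lamb1 stood at 67.9 and 69.4 CPM in Hopx/Clic5-positive cells, at 56.6, 41.1 and 43.8 CPM in airway cells and at 82.2, 78.1 and 60.0 CPM in tip cells. Its tip values exceeded every airway value, and its log2 fold change for airway against tip cells was −0.74 (SE 0.096, edgeR adjusted p = 5.62e-05). Lamb3 stood at 47.5 and 47.7 CPM in Hopx/Clic5-positive cells, at 21.9, 16.9 and 12.3 CPM in airway cells and at 43.1, 34.9 and 23.5 CPM in tip cells. Lamb3 and Lama5 were the 2 members whose Hopx/Clic5-positive values all exceeded all of their tip values.

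The gamma chain gene Lamc1 followed the order of Lama3, lowest in airway cells. It stood at 122 and 121 CPM in Hopx/Clic5-positive cells, at 48.2, 42.6 and 28.0 CPM in airway cells and at 137, 132 and 57.2 CPM in tip cells. Its log2 fold change for airway against tip cells was −1.50 (SE 0.0962, edgeR adjusted p = 1.04e-07), and every airway value lay below every value of the other classes.

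The type IV collagen chains followed the same order of classes. Col4a1 stood at 131 and 124 CPM in Hopx/Clic5-positive cells, at 79.0, 76.0 and 48.6 CPM in airway cells and at 147, 153 and 57.7 CPM in tip cells. Col4a2 stood at 41.9 and 42.9 CPM in Hopx/Clic5-positive cells, at 26.3, 20.5 and 16.0 CPM in airway cells and at 58.4, 63.4 and 26.3 CPM in tip cells. Within each library airway cells were lowest for both, and the log2 fold change for airway against tip cells was −0.83 for Col4a1 (SE 0.105, edgeR adjusted p = 4.28e-05) and −1.26 for Col4a2 (SE 0.13, edgeR adjusted p = 7.16e-06). For Col4a1 the log2 ratio of CPM was −0.90, −1.01 and −0.25. In Epcam+ its counting intervals overlapped, at 42.0 to 55.9 CPM in airway cells and 55.7 to 59.7 CPM in tip cells.

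Nid1 was the exception. It stood at 2.04 and 1.53 CPM in Hopx/Clic5-positive cells, at 4.47, 1.54 and 1.75 CPM in airway cells and at 1.78, 1.46 and 0.564 CPM in tip cells. The airway values rest on 9, 3 and 7 UMIs and overlap those of the other classes within their counting intervals. The log2 fold change for airway against tip cells was 1.01 (SE 0.413, edgeR adjusted p = 0.0736, higher in 3 of 3 libraries).

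Against airway cells, Hopx/Clic5-positive cells carried more RNA for 7 of the 9 members, where 9.31% of all genes tested were higher, and no member was lower, where 7.10% were (16.4% in either direction). The log2 fold changes of the 7 ranged from 0.53 for Lamb1 (SE 0.11, edgeR adjusted p = 0.00449) to the value given for Lama3, with Lamb3 at 1.40, Lamc1 at 1.39, Col4a2 at 0.77 and Col4a1 at 0.66. The median over the 9 members was 0.80, beside 0.03 over all genes. Lama1 and Nid1 did not pass the test. Without Epcam+ Icam+ replicate 2, Lamb1 (0.35, adjusted p = 0.372) and Col4a2 (0.63, adjusted p = 0.114) no longer passed.

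Between Hopx/Clic5-positive and tip cells the set was split. Of the 9 members, 1 was higher, where 6.72% of all genes were, and 1 was lower, where 8.53% were (15.2% in either direction). Lamb3 was higher, by 0.30 in log2 (SE 0.0932, edgeR adjusted p = 0.0474), and Col4a2 was lower, at −0.48 (SE 0.0981, edgeR adjusted p = 0.00473), each in 2 of 2 libraries. The other laminin and collagen members with over 10 CPM had log2 fold changes between −0.22 for Lama3 and 0.21 for Lama5, with adjusted p of 0.1 or more.

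The members called changed when any of the 3 libraries was left out. Without the Epcam+ library, which holds no Hopx/Clic5-positive cells, 7 members passed, in a fit that called 30.8% of all genes, against 15.2% with all libraries. In that fit Lamb3 (0.30) and Lama5 (0.18) were higher and Col4a2 (−0.51), Lama3 (−0.24), Col4a1 (−0.22), Lamb1 (−0.22) and Lamc1 (−0.14) were lower. Lamb3 was at 0.47 without Epcam+ Icam+ replicate 1 and at 0.13 without replicate 2, and neither passed the test. Both members called in the full fit missed the threshold when either of those libraries was left out.

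**Figure D2:**
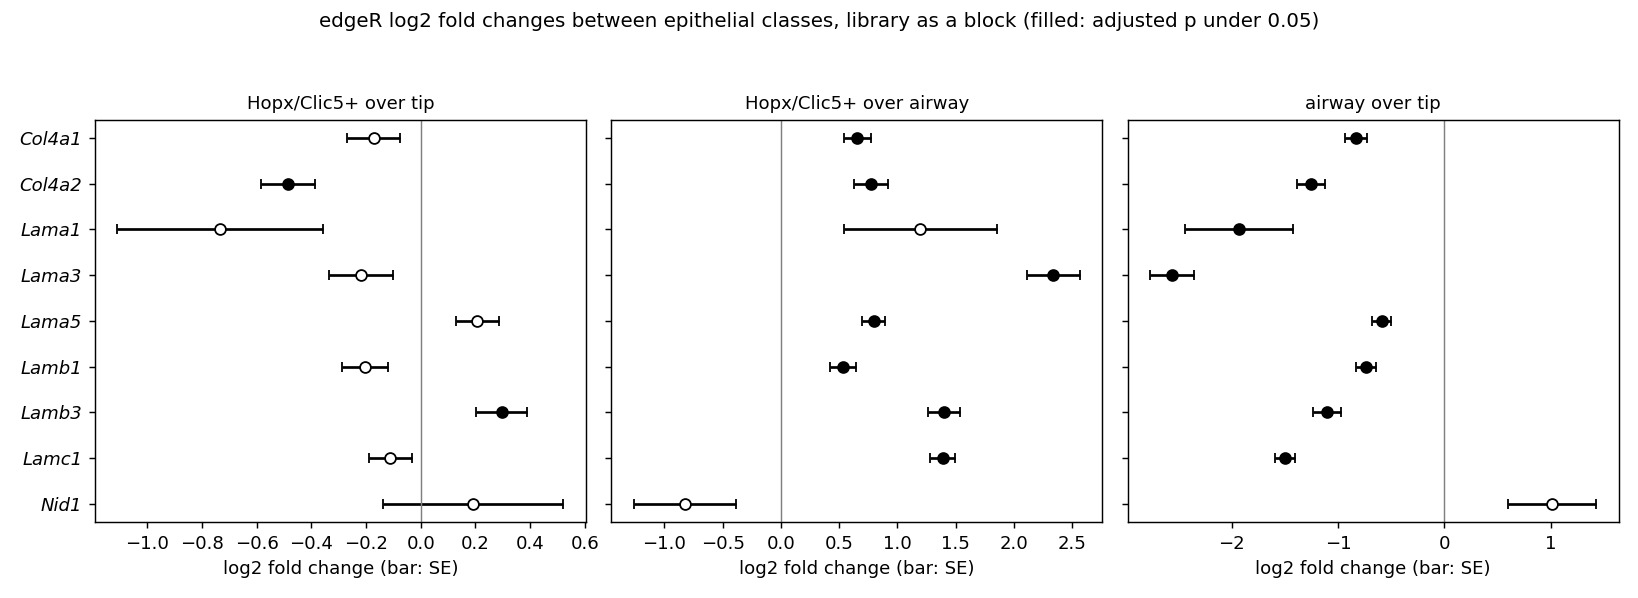
Log2 fold changes (horizontal axis, bars for the SE) of the members between epithelial classes in 3 panels, fitted with library as a block, with filled points where the edgeR adjusted p is under 0.05. In the panel of airway over tip, 8 members lie left of 0 with filled points, and Nid1 lies at 1.01 with an open one.

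The members varied together across classes to different degrees. Pearson's r was taken over the 11 sums of tip, airway, Hopx/Clic5-positive and other epithelial cells, on log2(CPM + 5) centred within each library; it describes these sums, which share libraries and airway sums of low depth. Lama3 and Lamc1 had r = 0.99, and Col4a1 and Col4a2 had r = 0.94. Col4a2 and Lamb3 were the least alike of the members over 10 CPM, with r = 0.69.

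Among 5167 genes with a mean of at least 20 CPM, the closest pattern to Lama3 was that of Vim, an intermediate filament gene (r = 0.994), and Ctnnd2 was among the closest 3. The closest to Col4a1 were Sorcs2 (r = 0.981), Col18a1 and Ctnnd2, and to Lama5 Sema5a, Col4a4 and Sparc, while Yeats4 and Lman1 were among the closest 3 to Col4a2. The closest to Lamb1 were Gga2, Areg and Sec61g, to Lamb3 Atp5e, Cdh16 and Sparc, and to Lamc1 Mbip, Foxp2 and Ankrd1. Lama1 and Nid1 averaged 1.39 and 1.72 CPM over these sums, too little for a pattern to be read. Even so, their closest genes reached r = 0.985 and 0.986. A high r picked from 5167 genes over 11 sums therefore does not single out the genes named here.

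Other genes of the basement membrane followed in part. Of the other type IV collagen genes, 1 of 4 tested was higher in airway than in tip cells and 2 were lower. Over all genes tested, 14.2% were higher and 20.8% lower. Col4a4 stood at 17.4, 10.8 and 4.75 CPM in airway cells against 56.9, 60.4 and 10.1 CPM in tip cells (log2 fold change −1.94, SE 0.171, edgeR adjusted p = 1.62e-06). Col4a5 stood at 101, 90.8 and 19.5 CPM in airway cells against 70.3, 68.8 and 15.8 CPM in tip cells (log2 fold change 0.32, SE 0.0902, edgeR adjusted p = 0.015), a call that was lost without either Epcam+ Icam+ library (adjusted p = 0.328 without replicate 1 and 0.194 without replicate 2).

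Of 12 other basement membrane proteins tested, 8 were lower in airway than in tip cells and 1 was higher, beside 20.8% and 14.2% of all genes. Col18a1, which encodes the collagen that releases endostatin, had a log2 fold change of −2.99 (SE 0.287), the EGF-like matrix gene Egfl6 one of −2.86 (SE 0.227) and the fibulin gene Fbln1 one of −1.67 (SE 0.123). Hmcn1, whose Caenorhabditis elegans counterpart joins adjacent basement membranes, ran the other way. It stood at 66.6, 81.6 and 57.8 CPM in airway cells against 14.6, 15.1 and 12.6 CPM in tip cells, or 2.13 in log2 (SE 0.0987, edgeR adjusted p = 6.41e-09).

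Genes that process and secrete collagen were lower in airway than in tip cells in 10 of 14 cases and higher in none, with a median log2 fold change of −0.56. They included the collagen chaperone Serpinh1 (−0.85, SE 0.0669), the prolyl hydroxylase P4ha2 (−0.95, SE 0.167) and the lysyl hydroxylase Plod2 (−0.65, SE 0.0936). Of 12 receptor and adhesion genes tested, 3 were lower and 3 higher, not far from the 20.8% lower and 14.2% higher over all genes. The laminin-binding integrin chains Itga3 (−0.76, SE 0.14) and Itga6 (−0.69, SE 0.105) and the Lama5 receptor Bcam (−0.39, SE 0.0632) were lower, and the cytoskeletal linkers Dst (2.18, SE 0.173) and Plec (0.55, SE 0.133) were higher.

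The Plec call was lost without Epcam+ Icam+ replicate 1 (adjusted p = 0.0605). Of 10 remodelling genes tested, 2 were higher in airway than in tip cells and 1 was lower, beside 14.2% and 20.8% of all genes. The matrix protease Adamts1 (0.62, SE 0.161, edgeR adjusted p = 0.00922) lost its call without either Epcam+ Icam+ library (adjusted p = 0.118 without replicate 1 and 0.0841 without replicate 2). Of 2 other laminins tested, Lama4, a laminin chain of vessels, was higher (2.70). Lama4 averaged under 10 CPM, it is named because the list is short, and the 5 endothelial markers summed to 3.98, 26.7 and 1.75 CPM in airway cells against 0.793, 0.700 and 1.11 CPM in tip cells, whose part in that result was not tested.

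**Figure D3:**
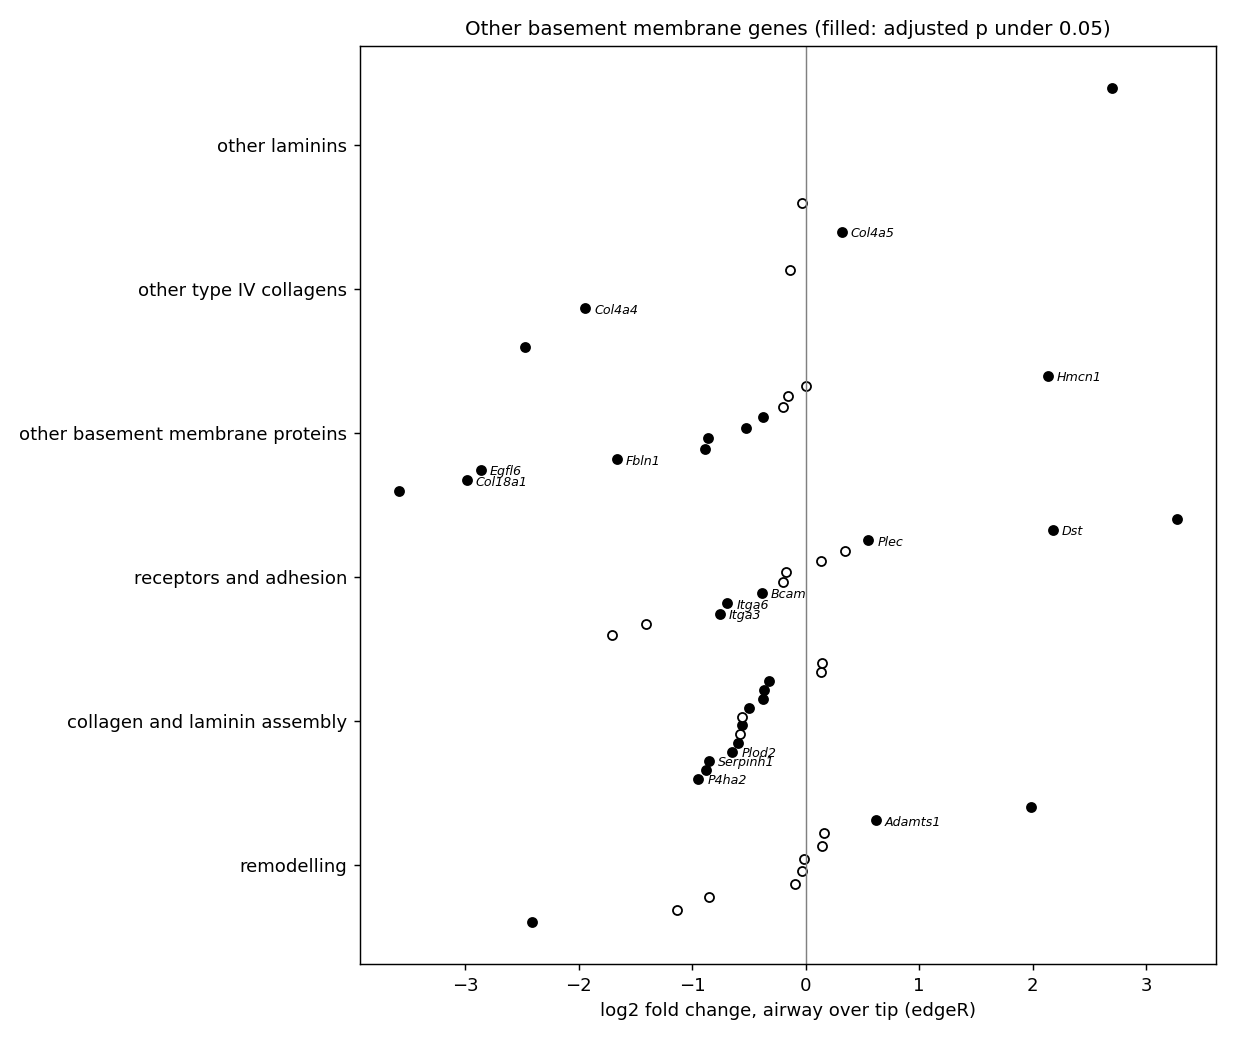
Log2 fold changes for airway over tip cells (horizontal axis) of the other genes of the basement membrane, grouped by list (vertical axis), 1 point for each gene tested, filled where the edgeR adjusted p is under 0.05. Filled points of the collagen and laminin assembly list all lie left of 0, while Hmcn1 and Dst lie at 2.13 and 2.18.

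Set against airway cells, Hopx/Clic5-positive cells were higher for 10 of 12 other basement membrane proteins and lower for Hmcn1 (−0.995, SE 0.109). Over all genes tested, 9.31% were higher and 7.10% lower. Col18a1 (1.97, SE 0.338), Egfl6 (1.84, SE 0.268) and Sparc, a collagen-binding matrix protein (1.21, SE 0.0773), were the largest. In the assembly list 9 of 14 were higher and none was lower, led by P4ha2 (0.97, SE 0.188) and Serpinh1 (0.85, SE 0.0783). Leaving out either Epcam+ Icam+ library took P4ha2 out of the calls (adjusted p = 0.0601 without replicate 1 and 0.114 without replicate 2). Col4a4 (2.36, SE 0.172) was higher too, and Dst was lower (−1.73, SE 0.182).

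Set against tip cells, Hopx/Clic5-positive cells differed in both directions, where 6.72% of all genes tested were higher and 8.53% lower. Of 12 other basement membrane proteins, 4 were higher, led by Hmcn1 (1.14, SE 0.1), and 4 were lower, led by Col18a1 (−1.02, SE 0.236) and Egfl6 (−1.02, SE 0.168). Of the 4 other type IV collagen genes 3 were higher, among them Col4a4 (0.41, SE 0.0997) and Col4a5 (0.31, SE 0.0802). Of the receptors, Dag1, the dystroglycan gene (0.49, SE 0.0702), and Ddr1, a collagen receptor (0.57, SE 0.141), were higher and Itga6 (−0.56, SE 0.0886) was lower, while the membrane protease Mmp14 (0.59, SE 0.074) and the protease inhibitor Timp3 (0.39, SE 0.0729) were higher. Of the 17 list genes named by the rule in this comparison, 11 lost their call without Epcam+ Icam+ replicate 1 and 15 without replicate 2, where a single library with Hopx/Clic5-positive cells is left.

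Epcam-low cells carried less laminin RNA than epithelial cells did and, for some members, held cells with much more. All Epcam-low cells of a library numbered 687 and 661 for Epcam+ Icam+ and 147 for Epcam+, against 2207, 1983 and 2503 epithelial cells. Immune cells made up 553, 535 and 68 of them, endothelial-gated cells 7, 10 and 7, and mesenchymal-gated cells 5, 8 and 7. The rest, 122, 108 and 65 cells at median depths of 5324, 5412.5 and 17703 UMIs, passed no gate. In it Lama5 stood at 33.6, 50.5 and 21.7 CPM, and 4 red cell genes summed to 58406 CPM in the Epcam+ library. Whether it holds shallow epithelial cells was not tested.

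In the test of all Epcam-low against all epithelial cells, 6 members were lower, where 23.2% of the 14787 genes tested were, and none was higher, where 23.0% were (46.2% in either direction). The log2 fold changes of the laminins were −3.26 for Lamb3 (SE 0.17), −3.22 for Lama3 (SE 0.181), −2.68 for Lama5 (SE 0.351), −2.31 for Lamc1 (SE 0.257), −2.25 for Lamb1 (SE 0.364) and −1.95 for Lama1 (SE 0.548), with edgeR adjusted p of 0.0431 or less. Col4a1 (−1.47, adjusted p = 0.108), Col4a2 (−1.21, adjusted p = 0.158) and Nid1 (2.40, adjusted p = 0.0863) did not pass. The Lama1 value rests on 2, 7 and 2 UMIs in Epcam-low cells, and its call was lost without Epcam+ Icam+ replicate 1 (adjusted p = 0.185).

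Leaving out the Epcam+ library raised the count to 9 members of 9, in a fit that called 80.8% of all genes, with Col4a1 at −2.22, Col4a2 at −1.94 and Nid1 at 1.30. That library has the smallest share of immune cells among its Epcam-low cells, and the direction of both collagen genes differed in it. Col4a1 stood at 17.4, 26.8 and 67.9 CPM in Epcam-low cells against 131, 128 and 57.1 CPM in epithelial cells, and Col4a2 at 6.89, 12.4 and 34.0 CPM in Epcam-low cells against 44.6, 47.9 and 24.3 CPM in epithelial cells. Each was higher in Epcam-low cells in 1 of 3 libraries, Epcam+. With immune cells left out of the Epcam-low cells, a setting added after the data had been seen, Nid1 (4.98), Col4a2 (1.07) and Col4a1 (0.76) were higher, where 17.5% of all genes were called in either direction. The laminins other than Lama1 (0.09, adjusted p = 0.968) were still lower, by less than with immune cells counted, at −2.26 for Lamb3, −1.76 for Lama3, −1.53 for Lama5, −1.40 for Lamc1 and −0.73 for Lamb1. The fitted sign for Col4a1 and Col4a2 differed between the fits with and without immune cells. Most Epcam-low cells left in the fit without immune cells passed no gate, at 122 of 134, 108 of 126 and 65 of 79. Fewer cells of a kind and less RNA in each cannot be told apart in the sum over all Epcam-low cells.

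Endothelial-gated cells, found by Pecam1, Cdh5, Kdr, Cldn5 and Emcn, had higher type IV collagen levels than epithelial cells in every library. Col4a1 stood at 676, 632 and 307 CPM in endothelial-gated cells against 131, 128 and 57.1 CPM in epithelial cells. Col4a2 stood at 325, 286 and 152 CPM in endothelial-gated cells against 44.6, 47.9 and 24.3 CPM in epithelial cells. In mesenchymal-gated cells Col4a1 stood at 135, 477 and 48.6 CPM and Col4a2 at 54.1, 262 and 81.0 CPM, and in Epcam+ Icam+ replicate 2 the counting intervals of both genes overlapped those of endothelial-gated cells, as did those of Col4a2 in Epcam+. No endothelial value overlapped an epithelial one within its counting interval, but the cells are few and no test was made on them.

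Nid1 was also far higher in these cells. It stood at 92.8, 94.6 and 55.8 CPM in endothelial-gated cells and at 284, 178 and 24.3 CPM in mesenchymal-gated cells, against 1.84, 1.60 and 0.653 CPM in epithelial cells. The mesenchymal values rest on 21, 19 and 3 UMIs from 5, 8 and 7 cells, and the lowest has a counting interval of 5.01 to 71.0 CPM. In immune cells Nid1 had 1 UMI in each library.

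The laminins differed by chain. Lamb1 stood at 86.1, 86.5 and 81.5 CPM in endothelial-gated cells against 71.7, 69.9 and 58.4 CPM in epithelial cells, and each epithelial value lay within the counting interval of the endothelial-gated one in its library. Lamc1 stood at 59.6, 32.4 and 47.2 CPM in endothelial-gated cells against 116, 113 and 53.0 CPM in epithelial cells. Lama3 and Lamb3 had 0, 0 and 1 UMI each in endothelial-gated cells and 0 in mesenchymal-gated cells of every library. In the Epcam+ endothelial-gated cells, the deepest of these sums, 1 UMI is 2.15 CPM. In mesenchymal-gated cells the floor of 3 counts is 40.5, 28.1 and 24.3 CPM. The exact Poisson upper limits for 0 UMIs there are 49.9, 34.5 and 29.9 CPM. Epithelial levels were 30.3, 31.8 and 16.0 CPM for Lama3 and 43.3, 39.5 and 23.8 CPM for Lamb3. The Lama3 levels lay below these limits in every library, so a lower mesenchymal level could not be told for Lama3. For Lamb3 only the level in Epcam+ Icam+ replicate 2 lay above its limit.

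Lama5 had 2, 2 and 4 UMIs in endothelial-gated cells, or 13.2, 5.41 and 8.58 CPM, against 104, 97.4 and 48.6 CPM in epithelial cells. The 5 ungated tip genes (Id2, Sftpc, Bmp4, Etv4 and Mycn) summed to 159, 114 and 169 CPM in the same endothelial-gated cells. That sum does not tell free epithelial RNA from RNA made in the cells themselves. The part of free RNA in these low laminin counts was not tested. Airway markers were at or near 0 in endothelial-gated cells, with at most 1 of 5 detected in each library.

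**Figure D4:**
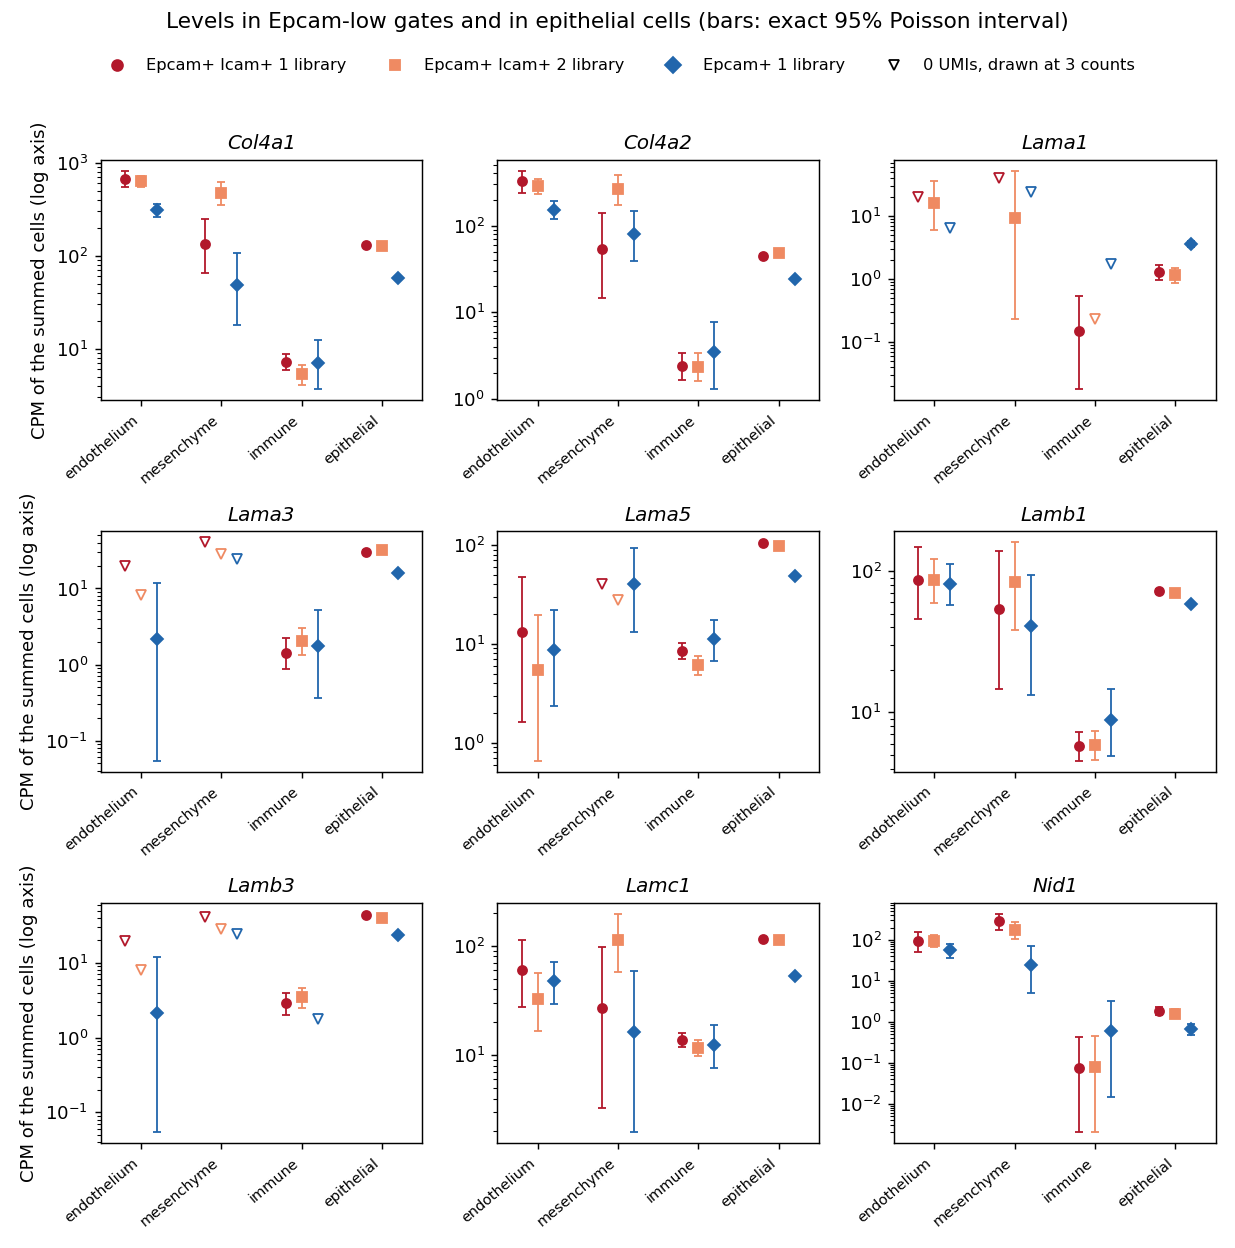
CPM (vertical log axis) of each member in endothelial-gated, mesenchymal-gated and immune Epcam-low cells and in all epithelial cells (horizontal axis), with 1 point for each library, bars for the exact 95% Poisson interval and open triangles at 3 counts where no UMI was seen. Col4a1 lies at 307 to 676 CPM in endothelial-gated cells against 57.1 to 131 CPM in epithelial cells, and Lama3 has no mesenchymal UMI in any library.

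The other genes of these lists were also compared between Epcam-low and epithelial cells. Over all genes tested, 23.2% were lower and 23.0% higher in Epcam-low cells. The other type IV collagen genes were lower in 4 of 4 cases, with Col4a4 at −3.80 (SE 0.283), Col4a5 at −3.31 (SE 0.194) and Col4a6 at −3.30 (SE 0.209). Of 14 other basement membrane proteins 11 were lower and 2 higher. The lysyl hydroxylase gene Plod1 was higher (3.87, SE 0.253), as was the protease gene Plau (5.90, SE 0.374), whose log2 fold change was 1.01 (adjusted p = 0.528) with immune cells left out. The rule named 22 list genes in this comparison. Of these, 4 lost their call without Epcam+ Icam+ replicate 1, 7 without replicate 2 and 0 without the Epcam+ library.

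The sorts were compared within tip and within airway cells, with 2 Epcam+ Icam+ libraries against 1 Epcam+ library and 1 residual degree of freedom. In tip cells 8 members were higher and 1 was lower in the Epcam+ Icam+ sort, where 38.9% of the 13020 genes tested were higher and 38.5% lower (77.4% in either direction), so passing the test says little about any member. The log2 fold changes were 1.28 for Col4a1 (SE 0.0493), 1.14 for Lamc1 (SE 0.0513), 1.11 for Col4a2 (SE 0.0832), 1.00 for Lama3 (SE 0.0868), 0.94 for Lama5 (SE 0.0603), 0.63 for Lamb3 (SE 0.0852) and 0.32 for Lamb1 (SE 0.0618). Nid1 was at 1.42 (SE 0.378), and Lama1 was lower, at −1.30 (SE 0.221).

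In airway cells 7 of the 9 members had enough counts for the test between sorts. Lamc1 (0.63, SE 0.203), Col4a1 (0.61, SE 0.163) and Lama5 (0.58, SE 0.173) were higher in the Epcam+ Icam+ sort, where 25.6% of all genes tested were higher and 24.8% lower (50.5% in either direction). Lamb3 (0.60, adjusted p = 0.0771), Col4a2 (0.49, adjusted p = 0.117), Lamb1 (0.10, adjusted p = 0.676) and Lama3 (−0.26, adjusted p = 0.74) did not pass. With DESeq2 no member passed (0 at an unadjusted p under 0.05), and with cells thinned to 3000 UMIs edgeR called none (1 at an unadjusted p under 0.05).

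The test of the difference between these differences called Col4a1 alone among the members, where 3.04% of the 13110 genes tested passed (1.71% above 0 and 1.33% below). The rise of Col4a1 in Epcam+ Icam+ over Epcam+ cells was smaller in airway than in tip cells by a log2 value of −0.63 (SE 0.159, edgeR adjusted p = 0.00875). Over the other members with over 10 CPM the same value ran from −1.23 for Lama3 (SE 0.473, adjusted p = 0.183) to 0.01 for Lamb3 (SE 0.285, adjusted p = 0.999). The red cell genes summed to 4.96, 224 and 172 CPM in tip cells and to 4.47, 87.2 and 47.3 CPM in airway cells, and the part of such differences between libraries was not tested.

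**Figure D5:**
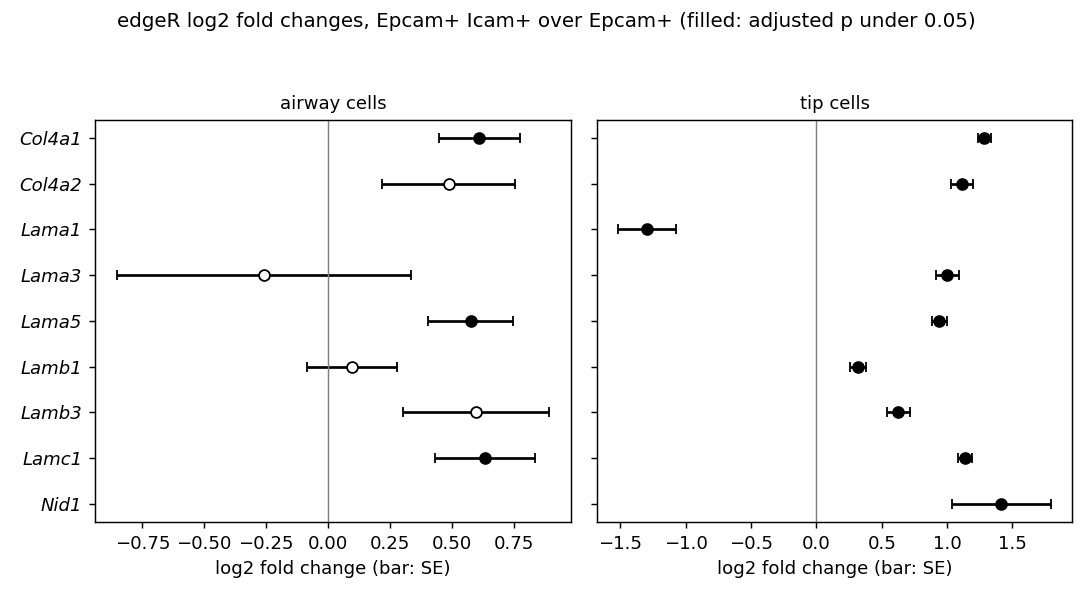
Log2 fold changes of Epcam+ Icam+ over Epcam+ cells (horizontal axis, bars for the SE) of the members, in airway cells (left) and tip cells (right), with filled points where the edgeR adjusted p is under 0.05. In tip cells 8 members lie right of 0 and Lama1 lies at −1.30, and in airway cells 3 members have filled points.

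Among the other genes of the basement membrane, the type IV collagens stood out by size between the sorts. In tip cells 4 of 4 were higher in the Epcam+ Icam+ sort, with Col4a4 at 2.44 (SE 0.0935), Col4a5 at 2.04 (SE 0.0886) and Col4a6 at 1.47 (SE 0.0926). In airway cells 3 of 3 were higher. Of all genes tested, 38.9% were higher and 38.5% lower in tip cells, and 25.6% higher and 24.8% lower in airway cells. Counts of genes that passed therefore say little about these lists. In tip cells 9 of 12 other basement membrane proteins were higher and 2 were lower, and the assembly genes were split, with 4 higher and 5 lower of 14 tested, among them Serpinh1 at −1.24 (SE 0.0333). Airway cells had 4 higher and 4 lower of 11 other basement membrane proteins. As for the members, sort, gene table and software version cannot be told apart in these values.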

How the data were processed

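Per the file headers, the deposited matrices are raw UMI counts of genes in barcodes, not normalized. Per the submitters' processing notes, Cell Ranger 2.1.1 and mm10 were used, while the headers of the matrices name versions 5.0.1 (Epcam+ Icam+) and 3.0.2 (Epcam+). Tables were joined on the Ensembl ID (30406 genes, 597 with another symbol). Barcodes with at least 1000 UMIs, 500 genes and at most 10% mitochondrial UMIs were kept, and the 129, 115 and 88 barcodes with the highest Scrublet doublet scores were left out (0.8% per 1000 barcodes; scanpy 1.11.5), leaving 3271, 3052 and 2902 cells. No clustering was used. Epcam-low cells had Epcam under 250 CPM; 102, 83 and 44 cells with both Epcam and at least 2000 CPM of immune genes were left out. Epcam-low gates were immune 2000, endothelium 500 and mesenchyme 2000 CPM.

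Counts were summed over the cells of a class in each library (at least 20 cells) and tested with edgeR 4.0.16 (TMM, filterByExpr, quasi-likelihood F test, Benjamini-Hochberg at 0.05 over all genes). The fits were tried on simulated data with less spread between sums than in any fit but that of the sorts in tip cells. That run therefore does not measure error rates here. SE is the log2 fold change divided by the root of F. The class fit pooled 8 sums, with library as a block and 3 residual degrees of freedom; the fit of Epcam-low cells had 2, and the sort fits 1. Alternatives included DESeq2 1.42.0, other gates and scalings, and leaving out each library. Counting intervals are exact 95% Poisson or binomial, and they and the floor of 3 counts cover counting error only. The members and gene lists were chosen with earlier results of these data known. Genes were named by rule: up to 3 in each direction of each list among those past the threshold whose mean reached 10 CPM. Some genes are not reported here.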

Additional observations from a re-analysis of the deposited data

Results flagged for a closer look

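The difference between the sorts itself differed between airway and tip cells for 8 genes of the set and its lists, by edgeR's quasi-likelihood test with Benjamini-Hochberg adjustment. Of the 13110 genes tested, 3.04% passed (1.71% above 0 and 1.33% below). By list, 1 of 9 members, 4 of 12 other basement membrane proteins and 1 of 11 receptor and adhesion genes passed. So did 1 of 14 assembly genes and 1 of 10 remodelling genes, but none of 2 other laminins or 4 other type IV collagens. The values are the log2 difference of Epcam+ Icam+ over Epcam+ in airway cells minus that in tip cells. Among basement membrane proteins they were −2.39 for Col18a1, −1.69 for Egfl6, −0.80 for Fbln1, −0.63 for Col4a1 and −0.33 for Sparc. They were 0.33 for the folding enzyme gene Ppib, 0.99 for Adamts1 and 2.59 for the integrin chain gene Itgb4.

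For Col18a1, the levels behind this value were 16.9 and 9.75 CPM in Epcam+ Icam+ airway cells and 49.6 CPM in Epcam+ airway cells, and 242 and 258 CPM in Epcam+ Icam+ tip cells and 168 CPM in Epcam+ tip cells. Itgb4 averaged under 10 CPM and was named after its values had been seen, as was Sparc. The fit has 1 residual degree of freedom. With DESeq2 the adjusted p of Col18a1 was 0.113 and that of Col4a1 was 0.9999, and with cells thinned to 3000 UMIs they were 0.403 and 0.875.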

How the results depend on the processing

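No paired analysis was possible because the Epcam+ library carries no replicate number in the labels, so the sorts share fewer than 2 numbers; the block used in the class fits is the library itself. In airway against tip cells, 8 members passed, and 2 did without the library block; under the other settings, leaving out each library included, 7 to 9 did. In Hopx/Clic5-positive against airway cells, 7 passed, 1 without the block and 5 to 7 when a library was left out. In Hopx/Clic5-positive against tip cells, 2 passed, and 0 did with DESeq2 or without the block, 1 with at most 5% mitochondrial UMIs, with no filter on low counts or with no limit on the immune list, and 0 to 7 when a library was left out. Between the sorts in airway cells, 3 passed, and 0 did with DESeq2 or thinned cells. For the difference between sort differences, 1 passed, 0 did with DESeq2, with thinned cells or with gates on 1 gene a class, and 3 did with no limit on the immune list. At an unadjusted p under 0.05, these counts of 0 were 0 to 3. The share of all genes called fell in these settings too. Without the block it was 4.94% against 35.0% for airway against tip cells. For Hopx/Clic5-positive cells it was then 0.750% against 16.4% (over airway) and 0.00% against 15.2% (over tip, 9.01% with DESeq2). Between the sorts in airway cells it was 15.0% with DESeq2 and 22.8% thinned, against 50.5%. The causes were not tested.

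Directions turned in these cases. For Hopx/Clic5-positive against tip cells, without the block, Col4a1 was at 0.0815, Lama3 at 0.0149 and Lamc1 at 0.14; Lamc1 was at 0.008 with thinned cells and Nid1 at −0.14 with gates on 1 gene. Htra1 in Hopx/Clic5-positive against airway cells was at −0.13 with thinned cells. With immune cells left out, Epcam-low against epithelial cells gave Col4a1 at 0.76, Col4a2 at 1.07, Lama1 at 0.0866, Mia3 at −0.20 and Serpinh1 at 0.0554. Between the sorts, Ddr1 in tip cells was at 0.0093 with thinned cells; in airway cells Lama3 was at 0.29 with stricter gates and Lamb1 at −0.0202 with at most 5% mitochondrial UMIs and at −0.16 with thinned cells or no immune limit. For the difference between sort differences, thinned cells gave Lama3 at 0.35, Lamb3 at −1.23 and Lamc1 at 0.15, and Lamb3 (0.006) was at −0.0021 with DESeq2, −0.0942 with an Epcam cut of 100 CPM, −0.008 with doublets kept, −0.0607 with gates on 1 gene and −0.29 with no immune limit.

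Counts over all genes moved by more than 1.5 times in these cases. Hopx/Clic5-positive against tip cells gave 2032 calls, and 1201 with DESeq2, 955 thinned, 1213 with gates on 1 gene, 1351 with no immune limit, 0 without the block and 254 to 4001 when a library was left out. Airway against tip cells gave 4665, and 1377 thinned, 658 without the block (62.8% of them higher, against 40.6%) and 2671 to 2726 without an Epcam+ Icam+ library. Hopx/Clic5-positive against airway cells gave 2186, and 580 thinned, 100 without the block and 658 to 798 without an Epcam+ Icam+ library. Epcam-low against epithelial cells gave 6833, and 2487 without immune cells, 4186 without the block and 3334 to 11684 when a library was left out. The sorts gave 10072 in tip cells (5677 thinned) and 5234 in airway cells (1556 with DESeq2, 1118 thinned), and the difference between sort differences 398 (24, 12 thinned, 142 with gates on 1 gene, 236 with at most 5% mitochondrial UMIs, 242 without the block, 693 with no immune limit). The sort fits left no residual degrees of freedom without an Epcam+ Icam+ library and no comparison without the Epcam+ library. Depth limits Lama1, Nid1 and every airway value.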
